A study of Mus musculus with 2 samples.

Results

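The cells described here are periosteal cells with high *Tnn* and low *Ibsp*, under the working name SSPC-2-like Tnn-high cells (SSPC, skeletal stem and progenitor cell). They were chosen by their own RNA counts. A Tnn-high cell had at least 15 *Tnn* UMIs per 10000 UMIs of the cell (CP10K), a UMI of *Lrrc15* or *Prss35*, under 10 CP10K of *Ibsp*, and a UMI of fewer than 3 of the 6 late osteoblast genes *Dmp1*, *Phex*, *Ifitm5*, *Car3*, *Slc13a5* and *Bmp8a*. A UMI, or unique molecular identifier, tags a captured mRNA molecule so that its copies are counted as the same molecule. The 2 libraries held 13587 cell barcodes, of which 9596 had 1000 to 5000 detected genes and under 25% mitochondrial UMIs, and 537 of these were Tnn-high cells. The control library gave 391 of 4455 retained cells and the Piezo1 fl/fl library 146 of 5141.

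The study asked how *Piezo1*, a mechanically gated cation channel, acts in progenitor cells of the periosteum, the membrane around bone. Cells were digested off the femurs and tibias of mice at 8 weeks, red blood cells were lysed, and Prx1-positive cells were sorted by flow cytometry, thawed and captured on the BD Rhapsody system, which tags the 3′ end of mRNA. The control mice are labelled Prx1 Cre; Ai9/+ and the others Prx1 Cre; Ai9/+; Piezo1 fl/fl, so both groups carry the Cre driver and the Ai9 reporter allele, and the floxed alleles are what sets them apart. Prx1 Cre is active in the early limb mesenchyme, so recombination is not limited to the cells described here. Each genotype has 1 library, and whether it pooled several animals is not stated, so genotype and library cannot be told apart and no p-value is given.

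The periosteum holds progenitors that build bone, and cartilage after a fracture. Its inner cambium layer is rich in osteogenic cells, and its outer fibrous layer in fibroblast-like cells. *Tnn* encodes tenascin-N (tenascin-W), a matrix glycoprotein of bone-forming tissue, *Postn* the matricellular protein periostin, and *Ibsp* the acidic, mineral-binding bone sialoprotein of osteoblasts.

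Where a level, a share or a ratio to another cell group is given as a pair, control comes first and Piezo1 fl/fl second. The Tnn-high cells held 3004561 and 897982 UMIs, with medians of 6337 and 5568 UMIs and 2076 and 1916.5 genes per cell, and 4.99% and 5.63% mitochondrial UMIs. The other retained cells, 4064 and 4995, were shallower, with medians of 4685.5 and 4586 UMIs. The libraries shared 50 barcode sequences. A shared sequence was carried by 6 control and 1 Piezo1 fl/fl Tnn-high cells, and by 0 that were Tnn-high in both. Doublets were not removed. The caller Scrublet marked 46 of 5551 barcodes (0.829%) and 67 of 6784 (0.988%), among them 7 and 2 Tnn-high cells.

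Levels are given in CPM, where 100 CPM equal 1 CP10K, from UMIs summed over the cells of a group in a library. *Piezo1* itself stood at 7.66 CPM (95% interval 4.85 to 11.5) in the control Tnn-high cells, from 23 UMIs. In the Piezo1 fl/fl Tnn-high cells it had 0 UMIs, which allows up to 4.11 CPM. The other retained cells kept 70 *Piezo1* UMIs in the Piezo1 fl/fl library and 111 in control, 2.49 and 4.86 CPM. *Piezo1* reached 26.0 and 16.3 CPM in endothelial-like cells, which had a UMI of *Pecam1* and of *Cdh5* and *Tnn* under 15 CP10K. Which part of the gene the floxed allele deletes is not given in the sources used here. A 3′ tag outside the deleted part checks nothing, so these counts do not check the labels. The related channel gene *Piezo2* stood at 7.66 and 5.57 CPM in the Tnn-high cells.

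The 4 marker genes were far above their level in the other retained cells, and 3 of them were part of the selection and are a description only. *Tnn* stood at 8143 and 5918 CPM, against 913 and 347 CPM in the other retained cells. Its median per cell was 76.3 CP10K in control (range 15.1 to 223) and 55.1 CP10K in Piezo1 fl/fl (15.4 to 150). *Lrrc15*, a membrane protein with leucine-rich repeats, stood at 1478 and 836 CPM and *Prss35*, a secreted protein of the trypsin-like serine protease family, at 871 and 431 CPM, against 117 and 60.3 CPM and 111 and 24.5 CPM in the other cells. Of the Tnn-high cells, 379 and 132 had a *Lrrc15* UMI, 281 and 86 a *Prss35* UMI, and 269 and 72 had both.

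*Postn* was not used to choose the cells, and it marked nearly all of them. It stood at 11575 and 7713 CPM, against 1583 and 889 CPM in the other retained cells, log2 ratios of 2.87 and 3.12. A *Postn* UMI was found in 99.0% and 98.6% of Tnn-high cells, and in 98.4% and 97.9% after each cell was thinned to 2500 UMIs, which left out 8 and 5 Tnn-high cells. Free RNA can add UMIs to cells that do not express a gene, so the same shares were taken in endothelial-like cells (173 and 139, median 3280 and 3492 UMIs, 47 and 42 left out by thinning). They were 22.5% and 15.8%, and 19.0% and 13.4% after thinning. In mural-like cells, which had a UMI of *Notch3* and of *Rgs5* (212 and 268 cells, median 3783.5 and 4294.5 UMIs, 38 and 40 left out), they were 35.8% and 17.5%, and 24.1% and 12.3% after thinning.

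The label SSPC-2 rests on *Ctsk*, *Postn* and *Sp7*, and all of these were present. *Ctsk*, the cysteine protease cathepsin K and a periosteal progenitor marker, stood at 691 and 761 CPM against 422 and 462 CPM in the other cells, below the fold of 2. *Sp7*, the transcription factor osterix of committed osteoblast precursors, stood at 185 and 160.4 CPM against 48.9 and 19.6 CPM. *Postn* and *Sp7* were within a fold of 2 between these cells and the Ibsp-high neighbours described below, so they do not set these groups apart. *Cdkn1c*, an inhibitor of cyclin-dependent kinases linked to quiescence, was at 91.2 and 95.8 CPM, against 617 and 468 CPM in SSPC-1-like cells. The name SSPC-1-like stands here for cells with a UMI of *Egfl6* and of *Col8a1*, *Tnn* under 15 CP10K and fewer than 3 late osteoblast genes. There were 565 and 641 of them, with medians of 5934 and 4824 UMIs.

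*Tnn* alone passed its threshold in 764 control and 405 Piezo1 fl/fl cells, *Lrrc15* or *Prss35* left 670 and 337, and the *Ibsp* limit left 391 and 146. The late osteoblast genes then removed 0 cells. In Tnn-high cells 359 and 140 had 0 of the 6 late genes, and each of these genes stood at 4.99 CPM or less. An *Ibsp* UMI was present in 177 and 53 Tnn-high cells and absent from 214 and 93, and *Ibsp* stood at 174 and 133 CPM in all of them. The 276 and 190 cells that met every other criterion but had *Ibsp* at 10 CP10K or more are called Ibsp-high neighbours (median 6635 and 6242 UMIs), and *Ibsp* stood at 5870.5 and 11333 CPM there.

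Across the *Ibsp* threshold *Sp7* and *Alpl* were close, while *Spp1* was not. The 40 and 18 Tnn-high cells with *Ibsp* of 5 to under 10 CP10K had *Sp7* at 242 and 216 CPM and *Alpl* at 819 and 733 CPM. The 44 and 16 cells with 10 to under 15 CP10K had *Sp7* at 236 and 199.8 CPM and *Alpl* at 812 and 715 CPM. *Spp1* stood at 13.1 and 173 CPM inside and 146 and 1378 CPM outside, and *Scx* at 22.9 and 475 CPM and 29.1 and 94.7 CPM. The control *Spp1* values rest on 4 UMIs inside and 50 outside. *Prss35* stood at 806 and 496 CPM inside and 914 and 168 CPM outside. At the *Tnn* threshold, the 12 and 8 Tnn-high cells with *Tnn* of 15 to under 20 CP10K had *Postn* at 2842 and 4155 CPM and *Chad*, a cartilage and tendon matrix protein, at 6133 and 2233 CPM. The 10 and 13 cells with 10 to under 15 CP10K that met the other criteria had *Postn* at 3701 and 1955 CPM and *Chad* at 1207 and 1307 CPM. A further 56 and 44 cells met all criteria except a UMI of *Lrrc15* or *Prss35*, with *Postn* at 3200.2 and 2573 CPM and *Chad* at 4727 and 2844 CPM.

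Tnn-high cells made up 8.78% of retained control cells (95% binomial interval 7.96 to 9.65) and 2.84% of retained Piezo1 fl/fl cells (2.40 to 3.33), a 3.09-fold share in control (2.55 to 3.76). The Ibsp-high neighbours made up 6.20% and 3.70%, 1.68-fold in control (1.39 to 2.03), and SSPC-1-like cells 12.7% and 12.5%, 1.02-fold (0.907 to 1.14). Of the Tnn-high cells and Ibsp-high neighbours together, 58.6% of 667 (54.8 to 62.4) and 43.5% of 336 (38.1 to 48.9) were Tnn-high. Genes that chose the cells also stood lower in the Piezo1 fl/fl Tnn-high cells, with log2 ratios of -0.46 for *Tnn*, -0.82 for *Lrrc15* and -1.01 for *Prss35*. A smaller share of cells and lower levels of the genes that define it cannot be told apart here, and the sort and the digestion also set what was captured.

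Compared with all other retained cells, Tnn-high cells were higher for *Postn*, *Col1a1*, *Col12a1*, *Runx2* and *Sp7*, among other genes. They were poor in the genes of fibroblasts, vessels and blood. A gene was counted as higher or lower when it passed a fold of 2 in the same direction in both libraries. Of 10693 genes with at least 100 UMIs over both sides in each library, 226 (2.11%) were higher and 1417 (13.3%) lower, and 9 of the tested genes belong to the rule. The median log2 ratio over these genes was -0.32 and -0.23, and centring on it is an alternative given with the other settings. The shares of 2.11% and 13.3% are the background for the lists below, and no list was compared with them by a test. The other cells hold 22821328 and 28111066 UMIs, so a gene can pass the UMI filter through them alone. Lower counts are in part set by this filter. The other retained cells include the Ibsp-high and SSPC-1-like cells, and the comparison describes groups that RNA itself defined.

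Beside the markers, the genes furthest above the other cells were *Pdzrn4*, *Cthrc1*, *Ostn*, *Dkk3*, *Ptn*, *Angptl2*, *Tnfsf11* and *Col12a1*. *Pdzrn4*, a protein with PDZ and RING domains, stood at 102 and 114 CPM against 10.6 and 5.87 CPM, log2 ratios of 3.25 and 4.28. *Cthrc1*, a secreted protein of matrix-producing cells, stood at 781 and 785 CPM against 117 and 100.03 CPM. *Ostn*, the small secreted peptide osteocrin of osteoblasts, stood at 637 and 1017 CPM against 108 and 39.8 CPM, log2 ratios of 2.56 and 4.67, so it stood higher in the Piezo1 fl/fl library in the Tnn-high cells and lower in the other cells. *Dkk3*, a secreted Dickkopf family protein, was at 2482 and 1769.5 CPM against 398 and 292 CPM, and *Ptn*, the heparin-binding growth factor pleiotrophin, at 2258 and 1052 CPM against 391 and 145 CPM. *Angptl2*, a secreted angiopoietin-like protein, was at 1297 and 1059 CPM against 235 and 183 CPM. The list is completed by *Tnfsf11*, the osteoclast-inducing cytokine RANKL, at 50.9 and 52.3 CPM against 9.46 and 9.68 CPM, and by *Col12a1*.

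Of the matrix protein list, 15 of 40 genes were higher and 11 lower, with median log2 ratios of 0.34 and 0.55. *Col12a1*, a collagen that associates with fibrils, stood at 9864 and 9417 CPM against 1684 and 1432 CPM, log2 ratios of 2.55 and 2.72. *Aspn*, a leucine-rich proteoglycan of the matrix, stood at 13147 and 9589 CPM (2.42 and 2.49) and *Thbs2*, a matricellular thrombospondin, at 3622 and 2902 CPM (2.35 and 2.38). The main bone collagen gene *Col1a1* stood at 88693 and 76705 CPM against 34448 and 28829 CPM, log2 ratios of 1.36 and 1.41, and *Col1a2* was alike at 1.27 and 1.33. Among the 11 lower genes were genes of elastic fibres and microfibrils. *Fbn1*, the microfibril protein fibrillin-1, stood at 124 and 102 CPM against 1689 and 1766 CPM, and *Fbln2*, a fibulin of basement membranes and elastic fibres, at 65.2 and 73.5 CPM against 727 and 883 CPM. *Col14a1* and *Mfap5* were lower too, with log2 ratios of -2.64 and -2.80 and of -2.34 and -2.75.

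Of the collagen processing list, 3 of 29 genes were higher and 3 lower, with medians of 0.39 and 0.22. The higher genes were *P4ha3*, a subunit of prolyl 4-hydroxylase, at 184 and 193 CPM, the lysyl oxidase relative *Loxl2*, which crosslinks collagen, at 2469 and 1732 CPM, and the lysyl hydroxylase *Plod2* at 860.4 and 747 CPM. Their log2 ratios were 2.44 and 1.78, 1.93 and 1.57 and 1.69 and 1.35. The lower genes were *Pcolce2*, *Colgalt2* and *Tmem38b*, and *Pcolce2*, an enhancer of procollagen cleavage, stood at 32.0 and 2.23 CPM, the latter from 2 UMIs. The secretory pathway list, chaperones and transport proteins of the endoplasmic reticulum and Golgi, had 0 of 35 tested genes past the fold in either direction, with medians of 0.15 and -0.02. Its chaperone *Hspa5* (BiP) stood at 1597 and 1659 CPM against 1946 and 2264 CPM.

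The osteogenic transcription factors stood above the other cells in 6 of 15 tested genes, and 1 was lower, with medians of 0.52 and 0.60. *Runx2*, the master regulator of osteoblast commitment, stood at 239 and 265 CPM against 112 and 65.1 CPM, log2 ratios of 1.10 and 2.03. *Sp7*, which acts after *Runx2*, had log2 ratios of 1.92 and 3.03. *Runx3*, a relative of *Runx2*, stood at 112 and 99.1 CPM (2.03 and 2.60), and the homeobox genes *Dlx5* and *Dlx6* at 384 and 315 CPM (1.37 and 2.59) and 148 and 101 CPM (1.43 and 2.79). The lower gene was *Twist2*, a helix-loop-helix factor that restrains osteoblast maturation, at 2.00 and 1.11 CPM against 34.8 and 25.04 CPM.

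Genes of mineral formation were mixed, with 2 of 12 tested genes higher and 4 lower (medians -0.23 and -0.01). *Alpl*, the phosphatase that frees phosphate for mineral, was higher at 605 and 516 CPM against 159 and 75.1 CPM, log2 ratios of 1.93 and 2.78. The mineral inhibitor *Mgp* was lower at 489.9 and 1178 CPM against 2597 and 5741 CPM, and so was *Spp1*, the phosphoprotein osteopontin, at 58.6 and 124 CPM against 610.5 and 827 CPM. *Smpd3* and *Fam20c*, a lipid-cleaving enzyme and a secretory pathway kinase that are both needed for mineral, were lower at under 6 CPM in each library. Early markers of the lineage were thus present with little of the acidic mineral-binding protein *Spp1*, while *Ibsp* was low by selection.

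Of the stem and progenitor markers, 1 of 25 tested was higher and 7 lower, with medians of -0.88 and -0.59. The higher gene was *Grem1*, a secreted BMP antagonist, at 91.2 and 134 CPM against 27.5 and 10.6 CPM. The sialomucin *Cd34* stood at 41.3 and 43.4 CPM against 1041 and 1101 CPM, log2 ratios of -4.65 and -4.65, and *Ly6a* (Sca-1) at 113 and 150.3 CPM against 1529 and 2146 CPM (-3.75 and -3.83). *Pdgfra*, a PDGF receptor of mesenchymal progenitors, was at 131 and 112 CPM against 548 and 479 CPM. *Lepr*, the leptin receptor of marrow stroma, was at 4.99 and 2.23 CPM, the latter from 2 UMIs. The limb mesenchyme factor *Prrx1*, whose enhancer drives the Cre, was at 546 and 559 CPM and *Cd200* at 103 and 177 CPM, neither past the fold.

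Wnt genes stood on both sides. Of 34 tested, 8 were higher and 13 lower, with medians of -1.12 and -0.54. Ligands on the higher side were *Wnt5b* at 115 and 141 CPM against 24.2 and 11.8 CPM (2.25 and 3.59), *Wnt16* at 255 and 121 CPM (1.22 and 2.22) and *Wnt10b* at 56.2 and 60.1 CPM (1.05 and 1.81). The co-receptor *Lrp4*, which presents the Wnt inhibitor sclerostin, was higher at 108 and 93.5 CPM, as was *Ror2*, a receptor tyrosine kinase for Wnt5 ligands, at 57.6 and 55.7 CPM. Secreted inhibitors and modulators stood on both sides. *Dkk3* was higher, with log2 ratios of 2.64 and 2.60, and *Frzb* stood at 23.0 and 8.91 CPM against 10.5 and 4.55 CPM, where the Piezo1 fl/fl ratio, from 8 Tnn-high UMIs, passes the fold only with the 0.5 UMIs added to each side. On the lower side *Dkk2* was at 3.00 and 2.23 CPM against 174 and 114 CPM, the latter Tnn-high value from 2 UMIs, with log2 ratios of -5.79 and -5.35 (95% interval -8.72 to -3.82 for the second), and *Sfrp1* at 13.0 and 17.8 CPM against 145 and 172 CPM. The ligand *Wnt2* had 0 UMIs in Tnn-high cells of both libraries, against 8.41 and 10.2 CPM.

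The TGF-beta and activin list had 1 of 30 tested genes higher and 9 lower, medians -0.58 and -0.58. The higher gene was the ligand *Tgfb2*, at 592 and 243 CPM against 163 and 122 CPM, log2 ratios of 1.86 and 1.00. The co-receptor *Tgfbr3*, which presents that ligand, was lower at 93.9 and 85.7 CPM against 386 and 368 CPM, as was the latency-associated matrix protein *Ltbp4* at 116 and 108 CPM against 406 and 434 CPM. The BMP list had 2 of 25 higher and 7 lower, medians -0.36 and -0.10. The BMP effector *Smad9* was higher at 23.0 and 16.7 CPM, and the ligand *Bmp4* was lower at 3.33 and 2.23 CPM against 39.1 and 44.3 CPM.

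In the FGF and IGF list 2 of 23 tested genes were higher and 10 lower, medians -1.37 and -0.66. The receptors *Fgfr2* and *Fgfr3* were the higher genes, at 317 and 386 CPM (1.41 and 2.37) and 87.5 and 55.7 CPM (1.87 and 2.66). *Igfbp5*, a binding protein of insulin-like growth factors, was lower at 675 and 794 CPM against 5863 and 4888 CPM. The hedgehog and PTH list had 1 of 12 higher and 7 lower, medians -1.11 and -1.21. *Pth1r*, the receptor of parathyroid hormone, stood at 127 and 166 CPM, log2 ratios of 1.20 and 2.09, and its ligand gene *Pthlh* was lower at 7.99 and 6.68 CPM against 72.5 and 79.8 CPM. Of 11 Notch genes tested, 0 were higher and 6 lower, medians -1.92 and -1.56, where 13.3% of all genes were lower. Among the lower genes *Heyl* stood at 1.33 and 1.11 CPM. A gene at this level passed the UMI filter through the other cells, so the lower count is in part set by the filter.

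The YAP pathway is the transcriptional arm that responds to stretch and cell density. Of 15 of its genes tested, 0 were higher and 1 lower, where 2.11% of all genes tested were higher and 13.3% lower. Counts this small do not set the list apart from all genes. The lower gene was *Vgll3* at 14.98 and 4.45 CPM against 48.7 and 45.2 CPM, and the medians of the list were -0.21 and -0.13. Of 20 YAP and TAZ target genes tested, 1 was higher (*Tgfb2*) and 5 lower, medians -0.48 and -0.21, and among the lower genes the receptor kinase *Axl* stood at 71.9 and 114 CPM against 586 and 676 CPM. Of 25 genes for mechanosensing and adhesion, 4 were higher and 7 lower, medians -0.13 and -0.31. *Ncam1*, a neural cell adhesion molecule, stood at 491 and 394 CPM (2.29 and 2.85), the mesenchymal cadherin *Cdh11* at 1249 and 1238 CPM (1.47 and 1.98), the collagen-binding integrin subunit *Itga11* at 234 and 296 CPM (1.52 and 1.41) and the gap junction protein *Gja1* (connexin 43) at 1603 and 1244 CPM (1.31 and 1.54).

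Proteases were split, with 6 of 27 tested genes higher and 10 lower, medians -0.17 and -0.43. The membrane-bound collagenase *Mmp14* stood at 1576 and 1288 CPM against 346 and 288 CPM, log2 ratios of 2.19 and 2.16. The gelatinase *Mmp2*, which *Mmp14* activates, stood at 4335 and 4371 CPM (1.32 and 1.48), the fibroblast activation protein *Fap* at 796 and 829 CPM against 282 and 236 CPM and *Adam12*, a disintegrin metalloprotease, at 192 and 105 CPM (2.21 and 1.92). *Plau*, which activates plasminogen, was lower at 16.6 and 6.68 CPM against 128 and 109 CPM.

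Of the cues for osteoclasts, vessels and nerves, 3 of 26 tested genes were higher and 14 lower, medians -1.87 and -1.38. *Tnfsf11* was higher (log2 ratios of 2.43 and 2.45) while its decoy receptor *Tnfrsf11b* (osteoprotegerin) was lower at 9.32 and 7.80 CPM against 36.8 and 33.3 CPM (-1.96 and -2.00). *Pdgfd*, a PDGF ligand, was higher at 197 and 89.1 CPM. The guidance and vessel cue netrin-1, *Ntn1*, was lower at 24.3 and 36.7 CPM against 261 and 272 CPM, and so was the vessel-stabilizing ligand *Angpt1* at 4.99 and 4.45 CPM.

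Of 9 tendon genes, 1 was higher and 7 lower, medians -2.37 and -1.48. The higher gene was *Scx*, the tendon transcription factor scleraxis, at 49.3 and 412 CPM against 22.9 and 145 CPM, log2 ratios of 1.11 and 1.51. The matrix protein *Tnxb* stood at 20.6 and 10.0 CPM against 454 and 503 CPM and *Cilp*, of the cartilage intermediate layer, at 44.6 and 40.1 CPM against 749 and 1127 CPM. Of 5 cell cycle genes tested, 0 passed the fold (medians 0.10 and -0.30), and *Mki67* stood at 10.7 and 15.6 CPM. Of 11 immediate early genes, 0 were higher and 1 lower (*Nr4a1*, medians -0.54 and -0.45), and *Fos* stood at 3667 and 4615 CPM against 4623 and 5067 CPM. Of 16 glycolysis genes, 0 were higher and 1 lower (*Gpi1*, medians -0.35 and -0.65).

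The genes furthest below the other cells included markers of blood cells, of stroma and of secreted inhibitors. *Itih5*, a hyaluronan-associated protein, stood at 8.32 and 8.91 CPM against 400.2 and 318 CPM, and *Scara5*, a ferritin receptor of fibroblasts, at 15.6 and 14.5 CPM against 446 and 387 CPM. The antigen-presenting gene *H2-Eb1* stood at 9.65 and 2.23 CPM against 298 and 197 CPM. *Dio2*, which activates thyroid hormone, and the chemokine *Ccl11* had 1 UMI each in the Piezo1 fl/fl Tnn-high cells, with log2 ratios of -4.97 and -5.31 (95% interval -11.20 to -3.41 for the second) and -5.36 and -5.17 (95% interval -11.06 to -3.28). *Ifi205*, *Ackr1*, *Olfml2a*, *Steap4*, *C3ar1* and *Hmcn2* were at 1 or 2 UMIs there and at 0.998 to 3.66 CPM in control. *Dkk2* is the remaining gene of these 12.

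**Figure D1:**
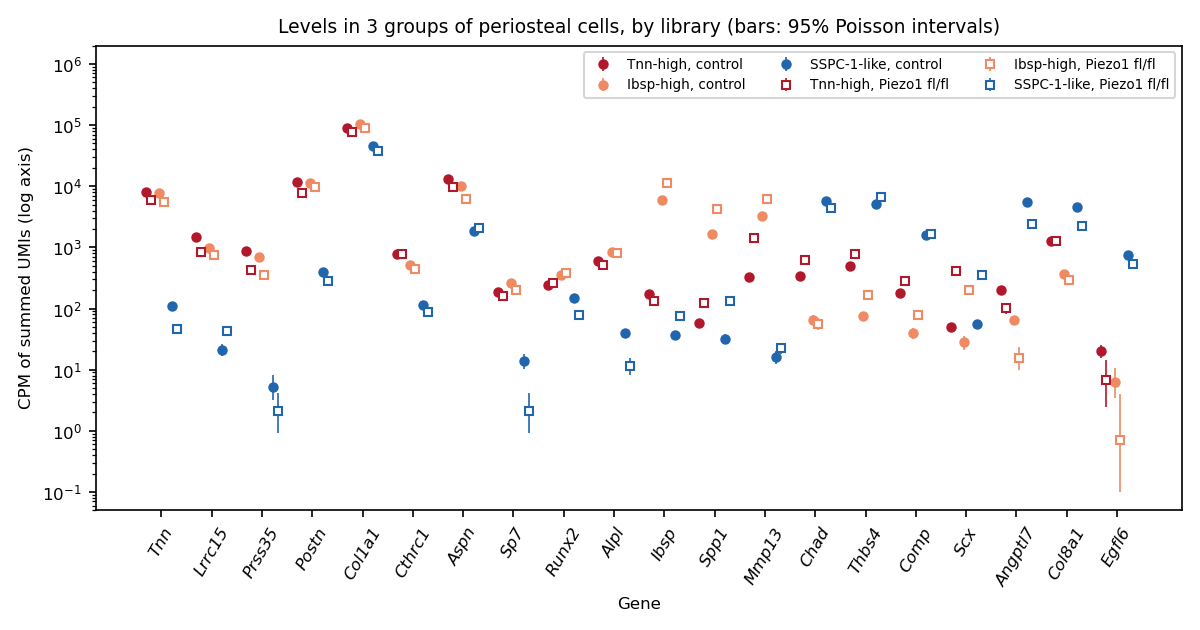
Levels (CPM, log axis) of 20 genes in Tnn-high cells, Ibsp-high neighbours and SSPC-1-like cells, with filled circles for control, open squares for Piezo1 fl/fl and bars for exact Poisson 95% intervals. *Postn* lies at 11575 and 7713 CPM in Tnn-high cells and at 392 and 280.3 CPM in SSPC-1-like cells, and *Tnn*, *Lrrc15*, *Prss35* and *Ibsp* chose the Tnn-high cells.

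Against the Ibsp-high neighbours, which differ in the rule only by *Ibsp*, few genes moved. Tnn-high cells were higher for 8 matrix genes, among them *Thbs4* and *Eln*, and for *Chad* and *Comp*, and lower for *Spp1* and *Mmp13*. Of 3172 genes tested, 25 (0.788%) were higher and 14 (0.441%) lower past a fold of 2 in both libraries, with medians of 0.05 and 0.07 over all. *Tnn* itself was level, at 8143 and 5918 CPM against 7801 and 5534 CPM, and so was *Postn*, with log2 ratios of 0.05 and -0.34.

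*Chad*, the leucine-rich cartilage and tendon protein chondroadherin, stood at 344 and 619 CPM against 65.7 and 55.7 CPM in the neighbours, log2 ratios of 2.38 and 3.47. *Thbs4*, a thrombospondin of tendon, stood at 487 and 782 CPM against 75.7 and 165 CPM (2.68 and 2.24), and *Comp*, its cartilage and tendon relative, at 179 and 285 CPM against 39.2 and 77.8 CPM (2.19 and 1.87). Much of the control RNA of *Chad* and *Comp* lay near the *Tnn* threshold. The 12 control cells with *Tnn* of 15 to under 20 CP10K held 572 of 1033 *Chad* UMIs and 243 of 539 *Comp* UMIs. With *Tnn* at 25 CP10K or more, the smaller log2 ratio of the 2 libraries was 1.44 for *Chad*, 1.95 for *Thbs4* and 1.36 for *Comp*. The elastic fibre genes *Eln* (elastin), *Mfap4* and *Mfap5* stood at 86.9 and 111 CPM, 129 and 146 CPM and 180.1 and 192 CPM, against 18.7 and 19.3 CPM, 34.2 and 17.9 CPM and 49.7 and 56.4 CPM. The collagens *Col8a1* and *Col14a1* had log2 ratios of 1.76 and 2.15 and 2.40 and 1.74. *Angptl7*, a secreted angiopoietin-like protein that marks SSPC-1, stood at 200.03 and 101 CPM against 64.8 and 15.7 CPM, and *Angptl1* at 123 and 110.2 CPM against 39.2 and 24.99 CPM. *Igf1*, the insulin-like growth factor, stood at 529 and 688 CPM against 183 and 118 CPM (1.53 and 2.54), and the adipokine-like protein *C1qtnf3* at 604 and 412 CPM against 157 and 121 CPM.

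On the lower side, *Spp1* stood at 58.6 and 124 CPM against 1631 and 4164 CPM, log2 ratios of -4.80 and -5.07. In control neighbours the 90th percentile of *Spp1* was 4.26 CP10K and the highest cell 743 CP10K, so the control level there rests on few cells. In Piezo1 fl/fl neighbours these were 119 and 494 CP10K. A *Spp1* UMI was found in 11.0% and 17.8% of Tnn-high cells and 21.0% and 46.3% of the neighbours, against 4.62% and 9.35% of endothelial-like and 3.77% and 6.34% of mural-like cells, and the median Tnn-high cell and neighbour had 0. *Mmp13*, the collagenase of late cartilage and osteoblast precursors, stood at 322 and 1409.8 CPM against 3204 and 6091 CPM (-3.31 and -2.11). *Ccn5*, a matricellular CCN protein, stood at 19.97 and 91.3 CPM against 144 and 565 CPM, and *Hpgd*, which breaks down prostaglandins, at 10.7 and 25.6 CPM against 58.4 and 126 CPM. The protease inhibitors *Serpine2* and *Timp1* were lower too, with log2 ratios of -1.57 and -2.64 and -1.29 and -1.79. *Tmem176a*, *Lifr*, *Zfp608* and *Cp* had log2 ratios between -1.43 and -1.03, and *Ibsp* was lower because the rule fixed it.

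By list, 8 of 37 matrix genes tested were higher and 0 lower (medians 0.18 and 0.17), with *Col8a2* and *Col15a1* beside those named. Of 12 osteogenic transcription factors 0 passed the fold (medians -0.24 and -0.08), where 0.788% and 0.441% of all genes tested did. *Runx2* stood at 239 and 265 CPM against 347 and 378 CPM and *Sp7* at 185 and 160.4 CPM against 257 and 201 CPM, both lower in Tnn-high cells in both libraries but under the fold. Of 8 mineralization genes tested, 1 was higher (*Mgp*, 1.36 and 1.61) and 1 lower (*Spp1*), medians -0.49 and -0.50, and *Alpl* stood at 605 and 516 CPM against 839 and 813 CPM. *Bglap* and *Bglap2*, near-identical osteocalcin copies whose reads counting may divide between them, had log2 ratios of -0.77 and -0.22 and -0.69 and -0.35.

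Of 17 stem and progenitor markers, 3 were higher (*Angptl7*, *Grem1* and *Thy1*) and 0 lower, medians 0.21 and 0.26. *Grem1* stood at 91.2 and 134 CPM against 19.6 and 57.1 CPM, and it was the 1 higher gene of 13 BMP genes tested (medians 0.09 and 0.20). Of 14 FGF and IGF genes 1 was higher (*Igf1*, medians -0.06 and -0.10), of 4 tendon genes 2 (*Chad* and *Comp*, medians 1.62 and 1.45), and of 16 proteases and inhibitors 3 were lower (*Mmp13*, *Serpine2* and *Timp1*, medians -0.27 and -0.67). No gene passed the fold in the lists for collagen processing (23 tested, medians 0.07 and -0.16), secretory pathway (32 tested, medians 0.05 and -0.13), Wnt (12 tested, medians 0.09 and 0.14), TGF-beta and activin (18 tested, medians 0.29 and 0.39), hedgehog and PTH (4 tested, medians -0.27 and -0.02) and Notch (3 tested, medians -0.50 and -0.10). The same held for YAP pathway (6 tested, medians 0.16 and 0.22), YAP and TAZ targets (13 tested, medians 0.05 and 0.07), mechanosensing and adhesion (12 tested, medians 0.00 and -0.05), cues (11 tested, medians -0.28 and -0.70), immediate early genes (11 tested, medians 0.06 and 0.24) and glycolysis (6 tested, medians 0.13 and 0.05). For cell cycle 0 genes were tested. Among the cues, *Tnfsf11* stood at 50.9 and 52.3 CPM against 66.2 and 126 CPM.

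Against SSPC-1-like cells, Tnn-high cells stood apart by osteoblast-lineage genes on the higher side and by several Wnt inhibitors and tendon genes on the lower side, with matrix genes on both. Of 5609 genes tested, 150 (2.67%) were higher and 380 (6.77%) lower, with medians of -0.16 and -0.10 over all. These shares are the background for the lists in this comparison, and no list was compared with them by a test. The SSPC-1-like cells hold 3837277 and 3770396 UMIs, against 3004561 and 897982 in Tnn-high cells. A gene can thus pass the UMI filter through the SSPC-1-like cells alone, and lower counts are in part set by this filter. *Prss35* and *Tnn* lead the higher side by selection, *Lrrc15* is among its 12 named genes for the same reason, and *Egfl6* and *Col8a1* were used to choose the SSPC-1-like cells. *Postn*, used for neither group, stood at 11575 and 7713 CPM against 392 and 280.3 CPM, log2 ratios of 4.88 and 4.78. It rose with *Tnn* among Tnn-high cells, and *Tnn* was used for both groups, so this ratio is a description too.

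*Sp7* stood at 185 and 160.4 CPM against 13.8 and 2.12 CPM (3.73 and 6.16) and *Alpl* at 605 and 516 CPM against 39.9 and 11.4 CPM (3.92 and 5.48), and *Mmp13* was higher by 4.33 and 5.98. *Pdzrn4* stood at 102 and 114 CPM against 1.56 and 2.12 CPM. *S1pr1*, the sphingosine-1-phosphate receptor best known from endothelium and lymphocytes, stood at 518 and 317 CPM against 24.8 and 9.28 CPM (4.38 and 5.08), and at 1321 and 1366 CPM in the endothelial-like cells. The endothelial markers summed to 22.0 and 5.57 CPM in the Tnn-high cells. *Ptprz1*, the receptor phosphatase that binds pleiotrophin, stood at 197 and 115 CPM against 11.7 and 5.30 CPM. The trafficking genes *Sytl2* and *Ehd3* had log2 ratios of 4.75 and 4.33 and 4.14 and 4.33.

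The secreted Wnt inhibitors *Wif1*, *Sfrp2* and *Dkk2* were far lower in Tnn-high cells. *Wif1* stood at 16.3 and 5.57 CPM against 512 and 237 CPM (-4.96 and -5.28), *Sfrp2* at 4.66 and 4.45 CPM against 229 and 123 CPM, and *Dkk2* at 3.00 and 2.23 CPM against 239 and 174 CPM. Of 23 Wnt genes tested, 5 were higher and 13 lower, medians -2.13 and -1.54, and the higher genes were *Wnt5b*, *Lrp4*, *Tnfrsf19*, *Dkk3* and *Ror2*. *Fgf18*, a growth factor of skeletal development, stood at 6.32 and 10.0 CPM against 318 and 306 CPM, and *Angptl7* at 200.03 and 101 CPM against 5586 and 2388 CPM. *Ccn3*, a matricellular CCN protein, stood at 39.6 and 17.8 CPM against 1673 and 2995 CPM. Of 9 tendon genes 0 were higher and 8 lower, medians -4.07 and -3.02, with *Kera*, the proteoglycan keratocan, at 15.3 and 8.91 CPM against 498 and 295 CPM, *Tnmd*, the tendon membrane protein tenomodulin, at 61.6 and 96.9 CPM against 1161 and 966 CPM, and *Cilp* at log2 ratios of -4.96 and -5.40. The SSPC-1-like rule sets no limit on tendon genes, and whether tendon-like cells are among the SSPC-1-like cells was not tested. The tendon genes are thus not shown to be a trait of SSPC-1. The median SSPC-1-like cell had *Angptl7* at 29.4 and 1.96 CP10K, so the group also differs between the libraries. *Dio2*, *Lepr* and *Palmd* complete the 12 lower genes with *Egfl6*, and *Dio2* stood at 1.66 and 1.11 CPM against 185 and 126 CPM, from 5 and 1 UMIs in the Tnn-high cells.

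Of 38 matrix genes tested against SSPC-1-like cells, 9 were higher and 12 lower (medians 0.42 and 0.23), and of 25 collagen processing genes 4 were higher and 1 lower (medians 0.19 and 0.06). *Chad* stood at 344 and 619 CPM against 5789 and 4429 CPM, so that its level lay between those of the neighbours and the SSPC-1-like cells. Of 11 osteogenic transcription factors 2 were higher (*Sp7* and *Runx3*) and 0 lower (medians 0.49 and 1.01), and of 9 mineralization genes 4 were higher (*Alpl*, *Ostn*, *Bglap* and *Bglap2*) and 1 lower (*Mgp*, medians 0.86 and 0.75). Of 21 stem and progenitor markers 2 were higher and 7 lower (medians -0.84 and -0.17). The higher ones were *Cxcl12*, a chemokine of marrow stroma, at 251 and 169 CPM against 53.9 and 51.7 CPM, and *Acta2*, smooth muscle actin, at 370.4 and 399 CPM against 146 and 79.0 CPM.

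Among signalling lists in the same comparison, TGF-beta and activin had 1 gene higher (*Tgfb2*, at 592 and 243 CPM against 59.4 and 85.7 CPM) and 9 lower of 24 (medians -0.87 and -0.58). BMP had 1 higher (the ligand *Bmp2*, 1.59 and 1.77) and 4 lower of 18 (medians -0.39 and -0.13), and FGF and IGF 0 higher and 8 lower of 19 (medians -1.58 and -0.46). Hedgehog and PTH had 1 higher (*Pth1r*) and 4 lower of 7 (medians -1.95 and -2.25). YAP pathway genes numbered 0 higher and 1 lower of 12 (medians -0.22 and -0.18), and YAP and TAZ targets 1 higher and 4 lower of 18 (medians -0.71 and -0.36). For mechanosensing and adhesion 1 was higher and 3 lower of 17 (medians 0.38 and 0.09), with *Piezo2* at 7.66 and 5.57 CPM against 126 and 183 CPM, log2 ratios of -4.01 and -4.90. Proteases had 7 higher and 1 lower of 19 (medians 0.82 and 0.64), and cues 2 higher and 6 lower of 19 (medians -1.12 and -0.68). Secretory pathway (33 tested, medians 0.00 and -0.16), Notch (4 tested, medians -0.90 and -0.25) and glycolysis (10 tested, medians 0.02 and -0.20) had 0 past the fold, immediate early genes 0 of 11 higher and 1 lower (medians -0.20 and -0.20), and for cell cycle 0 genes were tested.

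Defining markers of endothelium, muscle, nerve sheath, osteoclasts and red blood cells were low in the Tnn-high cells, while markers of related skeletal types were present. The 6 endothelial markers summed to 22.0 and 5.57 CPM, led by *Cdh5* in control and *Kdr* in Piezo1 fl/fl, with *Emcn* and *Cldn5* at 0 in Piezo1 fl/fl, and all 6 were lower than in the other cells. They summed to 6260 and 5350 CPM in endothelial-like cells. The 5 mural markers summed to 410 and 498 CPM, most of it *Acta2*, with *Kcnj8* at 0 in Piezo1 fl/fl, and 5 of 5 were lower. The 6 fibroblast markers summed to 299 and 314 CPM, led by *Ly6a*, and 6 of 6 were lower.

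Muscle markers summed to 3.66 CPM in control, led by *Acta1*, with *Ckm*, *Myh4* and *Myh1* at 0, and in Piezo1 fl/fl all 5 were at 0, which allows up to 4.11 CPM, and 2 of 2 tested were lower than in the other cells. Schwann and nerve sheath markers summed to 5.33 and 10.0 CPM, led by *Slc2a1*, with *Sox10* at 0 in both libraries and *Cldn1* in control, and 1 of 2 tested was lower. Osteoclast markers summed to 11.0 and 15.6 CPM, led by *Acp5* in control and *Mmp9* in Piezo1 fl/fl, with *Ocstamp* and *Dcstamp* at 0 in both and *Atp6v0d2* in Piezo1 fl/fl, and 3 of 3 tested were lower. Red blood markers summed to 0.666 and 3.34 CPM, led by *Hba-a2*, with *Hbb-bt* at 0 in both, *Hba-a1* in control and *Hbb-bs* in Piezo1 fl/fl. Marrow stroma and fat markers summed to 256 and 172 CPM, nearly all of it *Cxcl12*, with *Adipoq* and *Plin1* at 0 in both, and 1 of 2 tested was lower (*Lepr*).

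The SSPC-1 markers summed to 1790 and 1846 CPM, led by *Col8a1*. Preosteoblast markers summed to 686 and 1716 CPM, led by *Mmp13*, of which the Piezo1 fl/fl value rests in part on 1 cell. The sum includes *Ibsp* and *Ifitm5*, genes of the rule, and *Ibsp* was limited by the selection. Mature osteoblast and osteocyte markers summed to 1059 and 1251 CPM, led by *Bglap2*, with *Slc13a5* at 0 in Piezo1 fl/fl. This list holds the late osteoblast genes of the rule, *Slc13a5* among them, so their low levels are a description only. Tendon markers summed to 153 and 535 CPM, led by *Tnmd* in control and *Scx* in Piezo1 fl/fl.

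Cartilage markers summed to 1369 and 520 CPM, against 498 and 158 CPM in the other cells. *Col2a1*, the cartilage collagen, led in control at 806 CPM, and *Acan*, the proteoglycan aggrecan, in Piezo1 fl/fl at 508 CPM. In control 78.6% of these UMIs lay in the 5% of Tnn-high cells with the most, and in Piezo1 fl/fl 21.2%. *Acan* was spread more evenly between the libraries, at 414 and 508 CPM against 86.4 and 81.4 CPM in the other cells. Macrophage and blood markers summed to 111 and 357 CPM, led by *Lyz2*, against 1714 and 1910.0 CPM in the other cells, and 6 of 6 were lower than there. Of these UMIs 71.8% and 87.2% lay in the 5% of Tnn-high cells with the most.

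Between genotypes, *Runx2*, *Sp7*, *Alpl*, *Col1a1* and *Postn* were within a fold of 2 in the Tnn-high cells. *Scx*, *H19*, *Slc1a3*, *Smpdl3a*, *Ccn5* and *Mmp13* were higher in the Piezo1 fl/fl cells, and *Plppr5*, *Pawr*, *Thsd7a*, *Aldh1a3*, *Penk*, *Wnt16*, *Rspo3*, *Msx1* and *Tgfb2* were lower. Of 4795 genes with at least 100 UMIs over both libraries, 68 (1.42%) were higher in Piezo1 fl/fl past a fold of 2 and 60 (1.25%) lower, with a median log2 ratio of 0.05. The control Tnn-high cells hold 3004561 UMIs and the Piezo1 fl/fl ones 897982. A gene can thus pass the UMI filter through control alone more easily than through Piezo1 fl/fl alone. Counts of lower genes, here and in the lists below, are in part set by this filter. After thinning to 2500 UMIs per cell the counts were 103 higher and 141 lower. The UMI filter used the counts before thinning, so the thinned ratios rest on fewer UMIs. The larger counts were not told apart from sampling noise. Each genotype is 1 library, so these are differences between 2 libraries, and their intervals cover counting error only.

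*Scx* stood at 49.3 and 412 CPM, a log2 ratio of 3.06 (95% interval 2.79 to 3.35), from 95 of 391 and 91 of 146 cells. A *Scx* UMI was found in 24.3% and 62.3% of Tnn-high cells, and in 8.62% and 51.1% after thinning. In endothelial-like cells the thinned shares were 0% and 3.09%, and in mural-like cells 0% and 2.19%. The higher level was not limited to Tnn-high cells. The log2 ratio was 2.85 in the neighbours, 2.67 in SSPC-1-like cells and 2.66 in the other cells.

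*H19*, an imprinted long non-coding RNA of fetal tissue, stood at 46.9 and 482 CPM, a log2 ratio of 3.36 (95% interval 3.08 to 3.65), and it was found in 33 and 32 cells. It was 4.59 with *Tnn* at 25 CP10K or more, 2.51 as a mean over cells and 2.82 after thinning, 1.72 in the neighbours and 0.49 in SSPC-1-like cells. *Slc1a3*, a glutamate and aspartate transporter, stood at 10.7 and 81.3 CPM (2.92, 95% interval 2.31 to 3.58), from 24 and 35 cells, and *Smpdl3a*, a phosphodiesterase, at 19.0 and 100.2 CPM (2.40, 95% interval 1.91 to 2.91), from 42 and 47 cells. After thinning the ratio of *Smpdl3a* was 1.62. In the neighbours the ratio was 1.07 for *Slc1a3* and 1.36 for *Smpdl3a*. *Ccn5* stood at 19.97 and 91.3 CPM (2.19, 95% interval 1.70 to 2.70), and at 1.97 in the neighbours but -0.25 in SSPC-1-like cells. *Mmp13* stood at 322 and 1409.8 CPM (2.13, 95% interval 2.01 to 2.25), with 39.0% of its Piezo1 fl/fl UMIs in 1 cell. Its ratio was 1.61 without the cell with most of its UMIs in each library and 1.35 with *Tnn* at 25 CP10K or more. After thinning 22.5% and 41.8% of Tnn-high cells had a *Mmp13* UMI, against 3.97% and 6.19% of endothelial-like and 4.02% and 3.51% of mural-like cells. The chemokine *Ccl7* stood at 19.0 and 85.7 CPM (2.17, 95% interval 1.66 to 2.70) from 15 and 11 cells, with -2.96 in the neighbours.

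For the other 5 named higher genes, 35.2% to 88.9% of the Piezo1 fl/fl UMIs lay in 1 cell. *F13a1*, a coagulation factor subunit of macrophages, stood at 5.99 and 92.4 CPM, with 74.7% of its Piezo1 fl/fl UMIs in 1 of 4 cells, and its log2 ratio of 3.92 became 2.80 without the cell with most UMIs in each library. Macrophage complement genes were alike, *C1qc* with 82.3% and *C1qb* with 88.9% of the Piezo1 fl/fl UMIs in 1 cell. Without that cell in each library the log2 ratio of 2.51 for *C1qc* became 0.38, and that of 2.32 for *C1qb* became -0.33. *Prg4*, the lubricating protein of joints and tendon sheaths, stood at 155 and 1021 CPM (2.72, 95% interval 2.55 to 2.88), with 69.7% in 1 cell, and at 1.53 without it. *Sparcl1* stood at 23.96 and 139 CPM, with 35.2% in 1 cell, and its ratio of 2.53 became 2.36 without it. The ratio of *Sparcl1* was 1.41 with *Ibsp* under 20 CP10K, 1.93 with mitochondrial UMIs under 10% and 1.88 as a mean over cells. In the neighbours the ratios of *F13a1*, *C1qc*, *C1qb* and *Sparcl1* were -3.96, -2.12, -2.19 and -1.46. Of the 6 blood markers 2 were tested and both were higher, *C1qb* and *Lyz2* (1.22). Without the 9 and 2 Tnn-high cells that carried several cartilage or blood markers, a setting chosen after seeing the data, the ratio was 0.21 for *C1qb*, 0.66 for *C1qc* and 2.77 for *F13a1*. In that setting it was 3.06 for *Scx*, 3.52 for *H19* and 2.92 for *Slc1a3*.

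Of the genes lower in Piezo1 fl/fl, *Plppr5*, *Pawr* and *Thsd7a* were lower past the fold in each cell group, and *Lrrn1* in all but the neighbours. *Plppr5*, a membrane protein of the lipid phosphatase-related family, stood at 50.3 and 4.45 CPM (-3.33, 95% interval -5.39 to -2.11), from 93 and 4 cells. Its ratio was -3.63 in the neighbours, -1.56 in SSPC-1-like cells and -3.85 in the other cells. *Pawr*, a pro-apoptotic regulator, stood at 69.2 and 21.2 CPM (-1.68, 95% interval -2.47 to -1.03), with -1.17, -1.12 and -1.26 in those groups. *Thsd7a*, a membrane protein with thrombospondin repeats, stood at 138 and 45.7 CPM (-1.58, 95% interval -2.09 to -1.13), with -1.10, -1.60 and -1.54. *Lrrn1*, a leucine-rich repeat membrane protein, stood at 50.3 and 18.9 CPM (-1.37, 95% interval -2.23 to -0.68), with -0.91, -3.71 and -2.91.

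Other genes were lower in Tnn-high cells and neighbours but not past the fold in SSPC-1-like cells. *Aldh1a3*, which makes retinoic acid, stood at 79.2 and 30.1 CPM (-1.37, 95% interval -2.03 to -0.82), with -2.30 in the neighbours and 0.49 in SSPC-1-like cells. *Penk*, the opioid precursor proenkephalin, stood at 152 and 59.0 CPM (-1.36, 95% interval -1.81 to -0.96), with -3.45 in the neighbours and 0.93 in SSPC-1-like cells. The homeobox gene *Hoxc8* stood at 60.6 and 20.05 CPM (-1.56, 95% interval -2.38 to -0.89), with -1.07 in the neighbours and -0.51 in SSPC-1-like cells. Whether these ratios differ between cell groups was not tested.

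The other 5 of the 12 named lower genes were 4 cartilage collagens and *Ppa1*, and much of their control RNA lay in 1 cell. *Col2a1* had 2422 UMIs in control and 2 in Piezo1 fl/fl, a log2 ratio of -8.18 (95% interval -11.55 to -6.65), but 1646 of the control UMIs lay in 1 cell and 20 cells had any. *Col11a2* and *Col9a1*, collagens of the same fibrils, stood at 50.9 and 4.45 CPM and 78.5 and 7.80 CPM, with 60.1% and 50.8% of control UMIs in 1 cell. *Col9a2* and *Ppa1*, a pyrophosphatase, stood at 55.9 and 15.6 CPM and 81.2 and 30.1 CPM, with 66.7% and 59.4% in 1 cell. Without that cell the log2 ratio of -1.80 for *Col9a2* became -0.42, and that of -1.41 for *Ppa1* became -0.22. *Col2a1*, *Col11a2* and *Col9a1* stayed lower, at -7.27, -2.87 and -2.66. Of 5 cartilage markers 4 were tested and 3 were lower, *Col2a1*, *Col9a1* and *Cnmd*, the last with 129 and 1 UMIs. Without the same 9 and 2 cells, the ratio of *Col2a1* was -1.22, that of *Col11a2* -0.87 and that of *Col9a1* 1.00.

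Over all genes tested between genotypes, 1.42% were higher in Piezo1 fl/fl and 1.25% lower. The counts of the lists below were not compared with these shares by a test. Of 17 Wnt genes 0 were higher and 2 lower, median -0.04. *Wnt16*, a ligand of cortical bone, stood at 255 and 121 CPM (-1.06, 95% interval -1.37 to -0.78), and a *Wnt16* UMI was found in 44.9% and 17.7% of thinned Tnn-high cells, against 0% and 0% of endothelial-like and 2.87% and 0.877% of mural-like cells. *Rspo3*, which enhances Wnt signalling, stood at 36.3 and 7.80 CPM (-2.13, 95% interval -3.57 to -1.13). Both were also lower in the neighbours, with -1.11 for *Wnt16* and -1.75 for *Rspo3*, and in SSPC-1-like cells, with -1.70 for *Wnt16* and -2.19 for *Rspo3*.

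Of 23 TGF-beta and activin genes 1 was higher and 1 lower, median 0.00. *Tgfb2* stood at 592 and 243 CPM (-1.28, 95% interval -1.50 to -1.08), and *Ltbp2*, a matrix protein related to the latency-associated family, at 96.2 and 258 CPM (1.43, 95% interval 1.17 to 1.68), with -0.52 for *Tgfb2* and 2.52 for *Ltbp2* in the neighbours. Of 15 BMP genes 2 were higher and 0 lower, median 0.08, the target *Id1* at 29.3 and 64.6 CPM and the antagonist *Nbl1* at 252 and 512 CPM. Of 16 FGF and IGF genes 3 were higher and 1 lower, median 0.33. *Fgf7*, a ligand for epithelial FGF receptors, stood at 26.0 and 79.1 CPM, *Spry1*, a feedback inhibitor of FGF signalling, at 34.3 and 89.1 CPM and *Igfbp4* at 142 and 287 CPM, while *Igfbp3* was lower at 34.3 and 13.4 CPM.

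Of 10 YAP pathway genes tested between genotypes, 0 were higher and 0 lower, with a median of 0.02. Over all genes tested 1.42% were higher and 1.25% lower, so 0 calls among 10 genes do not set the list apart. The coactivators *Yap1* and *Wwtr1* (TAZ) stood at 137 and 149 CPM (0.12, 95% interval -0.17 to 0.40) and 253 and 238 CPM (-0.08, 95% interval -0.31 to 0.14). Of 17 YAP and TAZ targets 1 was higher, *Gadd45a* at 27.0 and 65.7 CPM, and 2 were lower, *Igfbp3* and *Tgfb2*, with a median of -0.03. The targets *Ccn1* and *Ccn2* stood at 784 and 934 CPM (0.25, 95% interval 0.14 to 0.37) and 926 and 1568 CPM (0.76, 95% interval 0.67 to 0.85), and *Ankrd1* had 1 and 0 UMIs. For 15 genes of mechanosensing and adhesion 0 passed in either direction, median -0.07.

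Over all genes tested between the genotypes, 1.42% were higher and 1.25% lower. Counts of 1 or 2 genes are too few to set a list apart from these shares. Of 38 matrix genes 1 was higher, *Fbln1*, a fibulin, at 146 and 404 CPM (1.47, 95% interval 1.27 to 1.68), and 2 were lower, the proteoglycan *Vcan* at 240.0 and 104 CPM (-1.21, 95% interval -1.54 to -0.90) and the fibrillar collagen *Col11a1* at 4346 and 2102 CPM (-1.05, 95% interval -1.12 to -0.98), median 0.04. Collagen processing (24 tested, median -0.02), secretory pathway (32 tested, median 0.02), hedgehog and PTH (6 tested, median 0.08), Notch (4 tested, median 0.47), immediate early (11 tested, median 0.20) and glycolysis (9 tested, median 0.02) had 0 past the fold, and of cell cycle 0 were tested. Of 13 osteogenic transcription factors 0 were higher and 1 was lower, the homeobox gene *Msx1* at 45.9 and 6.68 CPM (-2.67, 95% interval -4.25 to -1.62), median -0.13. *Runx2*, *Sp7* and *Alpl* had ratios of 0.15, -0.21 and -0.23, *Col1a1* -0.21 and *Postn* -0.59.

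Of 9 mineralization genes 2 were higher and 0 lower, median 0.57, *Mgp* at 489.9 and 1178 CPM (1.27, 95% interval 1.15 to 1.38) and *Spp1* at 58.6 and 124 CPM (1.08, 95% interval 0.72 to 1.43). Of 176 control *Spp1* UMIs, 107 lay in the 12 cells with *Tnn* of 15 to under 20 CP10K, so the size of its ratio rests on few cells. The 8 Piezo1 fl/fl cells in that range held 16 *Spp1* UMIs. Without these cells the control level would be far lower and the *Spp1* ratio larger than 1.08. *Mgp* was also higher in the neighbours (1.02), SSPC-1-like (1.45) and other cells (1.14). Of 19 stem and progenitor markers 1 was higher, the adhesion molecule *Vcam1* at 23.0 and 73.5 CPM, median 0.11. Of 18 proteases 2 were higher (*Mmp13* and *Prss23* at 77.2 and 168 CPM) and 1 lower (*Adamts1* at 102 and 50.1 CPM), median -0.20. Of 14 cues 2 were higher and 2 lower, median 0.04. *Slit2*, a guidance ligand, stood at 45.3 and 163 CPM and the semaphorin *Sema3c* at 436 and 190.4 CPM, with ratios between genotypes of 1.84 for *Slit2* and -1.19 for *Sema3c*, and of 1.26 and -1.38 for the same genes in the neighbours. *Ccl7* and *Pdgfd* were the others. Of 6 tendon genes 1 was higher (*Scx*), median 0.66, and *Chad*, *Tnmd* and *Comp* had ratios of 0.85, 0.66 and 0.67. The cells with *Tnn* of 15 to under 20 CP10K weigh on *Chad* and *Comp*, as they held 572 of 1033 control and 86 of 556 Piezo1 fl/fl *Chad* UMIs, and 243 of 539 and 10 of 256 *Comp* UMIs. Without these cells the ratios of *Chad* and *Comp* would be larger and past the fold, so the count of 1 higher tendon gene depends on them.

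**Figure D2:**
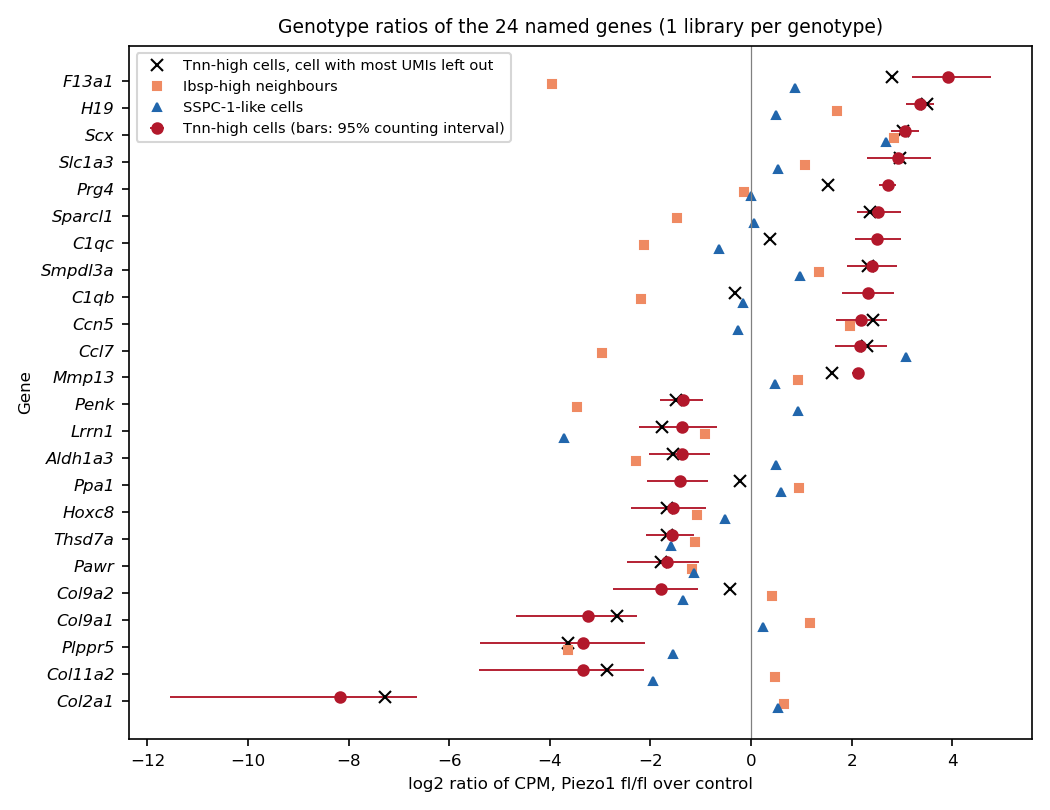
log2 ratios of Piezo1 fl/fl over control CPM for the 24 named genes in Tnn-high cells (red circles, bars for 95% counting intervals), the same without the cell with most UMIs of the gene (crosses), and in Ibsp-high neighbours (orange squares) and SSPC-1-like cells (blue triangles). *Scx* lies near 3 in all 3 groups, while *C1qb*, *C1qc*, *Col9a2* and *Ppa1* lie near 0 once that cell is left out.

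Among themselves, the Tnn-high cells were ranked by a ratio of variance to mean, which rises with level, so abundant collagen genes stand beside genes carried by few cells. The ratio of variance to mean of UMIs, after thinning to 2500 UMIs, was ranked over 2888 genes by the lower of the 2 libraries (383 and 141 cells), and its median over these genes was 1.11 in each. *Col1a1* led with 30.7 and 37.0, and *Col1a2* had 14.2 and 19.9, *Col3a1* 10.9 and 10.5 and *Sparc* 8.55 and 10.2. *Chad* had 19.2 and 15.1, *Mgp* 18.1 and 12.2 and *Thbs4* 23.0 and 10.8, while *Mmp13* had 14.8 and 59.99. *H19* had 15.2 and 10.9, *Fos* 10.4 and 11.7, *Prg4* 10.4 and 59.3 and *Lyz2* 14.0 and 8.90.

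These genes varied in groups. Across cells, *Col1a1* and *Col1a2* had Pearson r of 0.887 and 0.896 on log(1 + UMIs), *Fos* and *Egr1* 0.754 in each library, and *Postn* and *Tnn* 0.637 and 0.6001. *Chad* went with *Thbs4* (0.543 and 0.440), *Mgp* (0.503 and 0.532) and *Angptl7* (0.501 and 0.441), and ran against *Postn* (-0.427 and -0.373). *Mgp* and *Postn* had r of -0.458 and -0.572. Cells share their library and thinned depth, so these values describe 383 and 141 cells and carry no test.

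A split on *Chad*, chosen after its values were seen, gives these genes as levels. Genes that went with *Chad* above are bound to differ between its sides, so the levels are a description only. A deeper cell is more likely to hold a *Chad* UMI, so the split and depth cannot be told apart. The 12 control cells with *Tnn* of 15 to under 20 CP10K held 572 of the control *Chad* UMIs. A *Chad* UMI was present in 110 and 50 Tnn-high cells and absent from 281 and 96. Cells with it had *Thbs4* at 1226 and 1350.2 CPM against 132 and 439 CPM without it, *Comp* at 424 and 444 against 61.6 and 189 CPM, and *Tnmd* at 165 and 181 against 11.8 and 46.4 CPM. *Angptl7* stood at 512 and 243 against 50.3 and 16.1 CPM. *Tnn*, *Postn* and *Alpl* were within a fold of 2 between the sides of the split. *Tnn* stood at 7241 and 5990.0 against 8577 and 5874 CPM, *Postn* at 10515 and 7115 against 12084 and 8073 CPM, and *Alpl* at 492 and 385 against 659 and 594 CPM. *Scx* stood at 58.4 and 574 against 44.8 and 314 CPM, higher in the Piezo1 fl/fl cells on either side.

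Tnn-high cells with and without an *Ibsp* UMI were within a fold of 2 in *Alpl* and *Sp7* and differed in *Thbs4*. The split uses a gene of the rule, and cells with an *Ibsp* UMI were deeper (median 8377 and 5905 UMIs against 5346 and 5204), so the split and depth cannot be told apart. *Thbs4* stood at 295 and 368 CPM with it and 710.4 and 1034 CPM without, past a fold of 2 in both libraries, and *Spp1* at 22.9 and 118 CPM and 100.2 and 127 CPM. *Alpl* stood at 695 and 615 CPM with it and 501 and 455 CPM without, and *Sp7* at 205 and 206 CPM and 163 and 133 CPM. *Chad* and *Mmp13* gave no shared order, with *Chad* at 402 and 268 CPM against 276 and 833 CPM and *Mmp13* at 376 and 877 CPM against 259.6 and 1735 CPM.

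**Figure D3:**
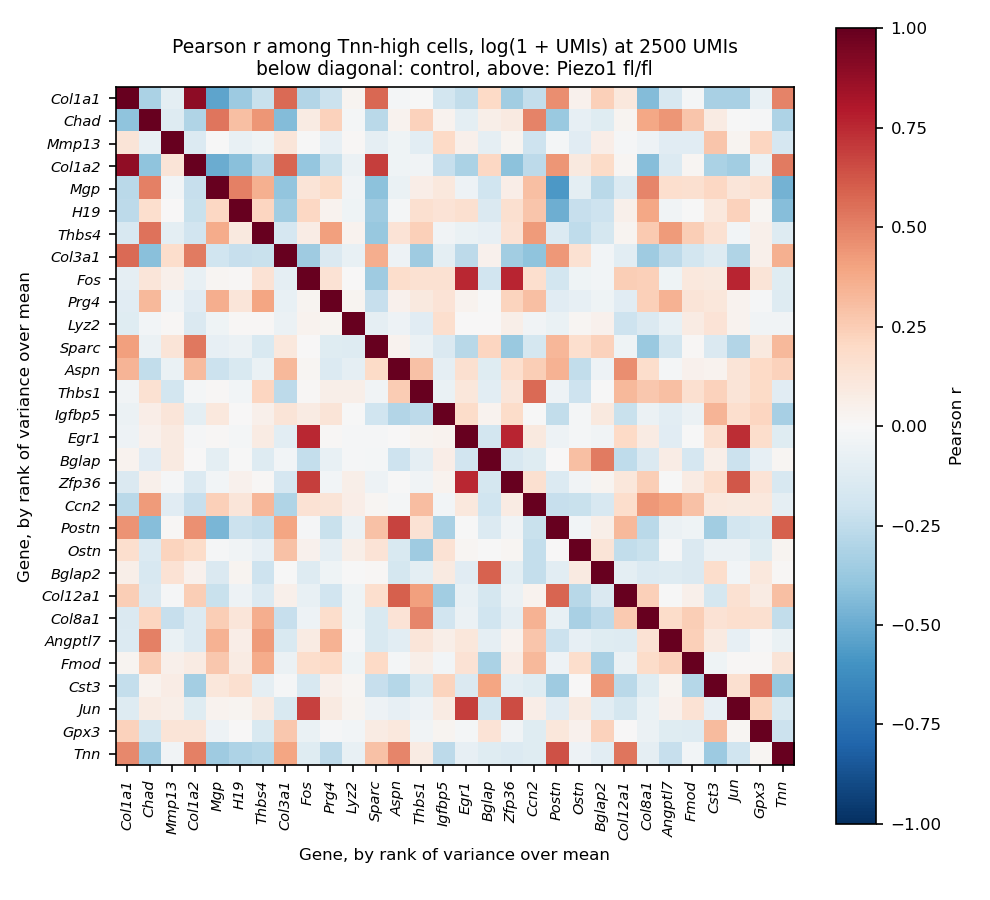
Pearson r of log(1 + UMIs), at 2500 UMIs per cell, between the 30 genes with the largest ratio of variance to mean among Tnn-high cells, with control below the diagonal and Piezo1 fl/fl above it. *Chad*, *Mgp*, *Thbs4* and *Angptl7* are positive with each other, and *Chad* and *Mgp* are negative with *Postn* in both libraries.

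The promoters of 2 of the genes that chose the cells, *Tnn* and *Lrrc15*, are shown. Each holds a motif of the set below, while the windows of *Prss35*, which also chose the cells, and of *Postn* hold none. The 250 bases upstream of the start were taken from RefSeq GRCm38.p6 and searched on both strands for letters known from RUNX (TGTGGT), TEAD (CATTCC), AP-1 (TGANTCA) and homeobox (TAATTA) binding sites. Of the 12 genes named as higher than in the other cells, 8 had such a window, and each motif was found in 1 of 8, against 15.9%, 14.4%, 7.82% and 5.65% of 27025 genes with a window and 12.6%, 12.8%, 5.47% and 3.02% of 8541 tested genes with a window. *Tnn* lies on the minus strand of chromosome 1, its gene at 160085029 to 160153580 and the window at chr1:160153576-160153825. *Lrrc15* lies on the minus strand of chromosome 16, its gene at 30269302 to 30283256 and the window at chr16:30283255-30283504. Capitals mark the TEAD letters in *Tnn*, read on the opposite strand, and the AP-1 letters in *Lrrc15*. The gene limits are those of GENCODE vM21 and the windows start from the RefSeq start, which lies a few bases inside them. A match is a description of letters and shows no binding.
Tnn: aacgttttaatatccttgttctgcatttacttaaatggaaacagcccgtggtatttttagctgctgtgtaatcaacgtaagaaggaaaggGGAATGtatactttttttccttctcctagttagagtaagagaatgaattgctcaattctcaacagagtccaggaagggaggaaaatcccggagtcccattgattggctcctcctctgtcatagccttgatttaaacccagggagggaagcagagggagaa
Lrrc15: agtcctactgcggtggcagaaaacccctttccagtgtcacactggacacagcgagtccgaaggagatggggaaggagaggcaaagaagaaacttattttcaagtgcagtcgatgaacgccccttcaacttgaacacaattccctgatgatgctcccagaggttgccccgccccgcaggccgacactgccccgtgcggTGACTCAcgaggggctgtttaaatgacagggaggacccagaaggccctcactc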

How the data were processed

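The count tables deposited by the authors were used, as UMIs of a gene in a cell barcode. The submitters' processing notes name fastp, UMI-tools and STAR for the reads and Seurat 4.0.3 for clustering, and the genome build and annotation used for counting are not given in the sources used here. Gene loci came from GENCODE vM21 by Ensembl ID. Work was done in Python 3.11.15 with numpy 2.4.6, scipy 1.17.1, pandas 2.3.3, scanpy 1.11.5 (Scrublet) and matplotlib 3.10.9. The libraries were kept apart.

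UMIs were summed over the cells of a group and scaled to CPM. Intervals are exact Poisson for levels, exact binomial for shares and, for log2 ratios (0.5 UMIs added to each side), exact given the summed count. Intervals cover counting error only. The 12 genes named in each direction had the largest log2 ratios, ranked by the library with the smaller ratio, with at least 50 CPM on the higher side and without mitochondrial, ribosomal protein, hemoglobin, Y-linked genes and *Xist*. From each list up to 4 genes with the largest ratios were named, and those whose role is needed to read it. Some genes that met these rules are not reported here. The Tnn-high cells, the 21 pathway lists and the 15 marker lists were chosen with earlier results of these data known.

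The minimum mean of 0.1 UMIs in the ranking of spread, the correlations over its first 30 genes, the motif set, the split on *Chad* and the added settings were chosen after seeing the data.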

Additional observations from a re-analysis of the deposited data

How the results depend on the processing

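The choices that moved main results were few. With *Ibsp* under 5 CP10K the control share of Tnn-high cells was 7.88%, and with *Ibsp* under 20 CP10K the shares were 10.4% and 3.38%. Over all settings the control share was 2.91-fold to 3.33-fold that of Piezo1 fl/fl. Centred on the median of all genes, 341 genes were higher than in the other cells, and with at least 200 UMIs 95 were higher than in SSPC-1-like cells.

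Genotype counts moved most. They were 103 higher and 141 lower after thinning, 156 and 137 with at least 50 UMIs, and 36 and 23 with at least 200 UMIs. In the thinned setting the filter used the UMIs before thinning, so sampling noise can add calls there. A few named genes changed sign. With *Tnn* at 25 CP10K or more, *Col11a2* had a log2 ratio of 0.25, *Col9a1* 0.99, *Col9a2* 1.04 and *Ppa1* 0.34. Without Tnn-high cells carrying markers of other types, a setting added after seeing the data, *Col9a1* had 1.00, *Col9a2* 1.04 and *Ppa1* 0.34. Without the cell with most UMIs of the gene, also added then, *C1qb* had -0.33. The cells left out held much of the control cartilage RNA, and the cause of the other shifts was not tested.

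No paired analysis was possible because each genotype has 1 library with no link between animals, and leaving a library out was not possible for the same reason. Cells were chosen by their own RNA, so dropout in shallow cells and free RNA bear on which cells were counted.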
